A study of Tupaia belangeri with 15 samples.

Results

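The 10 genes described here carry out cholinergic signalling in the retina. They are the synthesis and transport genes CHAT, SLC18A3 and SLC5A7, the hydrolase gene ACHE, the nicotinic receptor subunit genes CHRNA3, CHRNA4, CHRNA6, CHRNA7 and CHRNB2, and the muscarinic receptor gene CHRM2. They were chosen by gene name, each was found under its own name, and they are 10 of the 83605 features of the deposited matrices, of which 64238 had a UMI (unique molecular identifier, 1 counted RNA molecule) in any nucleus. Nuclei from frozen retinas of the tree shrew (TS, Tupaia belangeri), a cone-rich small mammal, were profiled with the 10x Genomics platform in 15 retinas, 5 from each of the infancy, mature and senile stages. No animal was treated or carried a transgene. Senile animals came from another institute than infant and mature ones, so source and senile stage cannot be told apart.

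Acetylcholine in the retina comes from starburst amacrine cells, which also release GABA and which shape the direction selectivity of some ganglion cells. CHAT makes the transmitter from choline and acetyl-CoA, SLC18A3 (VAChT) loads it into vesicles, SLC5A7 (CHT1) takes choline back into the cell, and ACHE cleaves the released transmitter. The targets sense it through nicotinic receptors, ion channels built from alpha and beta subunits, and through muscarinic receptors such as CHRM2, which act through G proteins. SLC18A3 lies within the CHAT locus in mammals, so reads of the pair can be hard to assign.

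Classes were set in 119765 nuclei by fixed marker genes, with none of the 10 genes among them, and each class is called "-like" after its markers. In all, 2001 nuclei were starburst-like (56 to 190 per retina), 25649 other amacrine-like, 6645 ganglion-like and 1212 horizontal-like, whereas 23576 stayed ungated. The starburst-like nuclei held 1325 CPM (UMIs of a gene per 1000000 UMIs) of MEGF11 and 322 CPM of ISL1, both fixed markers of the gate, against 7.13 and 8.47 CPM in other amacrine-like nuclei. In 66.4% of them only the minimum of 2 markers was seen, and MEGF11 also stood at 670 CPM in horizontal-like nuclei. Of the other 4 markers of the gate, MEGF10 (85.1 against 6.75 CPM), SOX2 (41.2 against 1.85 CPM) and FEZF1 (12.3 against 0.69 CPM) were also higher than in other amacrine-like nuclei, whereas SLC35D3 was lower (0.67 against 1.35 CPM). MEGF10 was higher still in astrocyte-like (292 CPM), horizontal-like (255 CPM) and Muller-like nuclei (219 CPM), SOX2 in astrocyte-like nuclei (54.4 CPM), and FEZF1 was as high in bipolar-like nuclei (12.3 CPM). The retinas fall into a pair of sets: 7 (Infancy 1 to 3, Mature 1 and 2, Senile 1 and 2) are labelled polyA RNA and were processed with an earlier Cell Ranger version, and 8 are labelled total RNA and were processed with a later one. Median UMIs per barcode were 1461 to 3068 in the first set and 2268 to 5611 in the second. Preparation, depth and program version differ together and cannot be told apart, and both sets occur in every stage.

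CHAT, SLC18A3 and SLC5A7 were concentrated in starburst-like nuclei. CHAT stood at 221 ± 36.1 CPM there (mean ± SD, n = 15 retinas here and below unless stated), with a lowest value of 156, a median of 220.5 and a highest of 291 CPM. In other amacrine-like nuclei it stood at 11.4 ± 3.59 CPM, and in the remaining classes its means lay between 1.95 CPM in rod-like (n = 14) and 10.3 CPM in microglia-like nuclei, the latter from 8 UMIs in all. Every starburst-like value was far above every value of the other amacrine-like nuclei, the highest of which was 16.7 CPM. In a single fit over the classes with the retina as a block, the log2 fold change of CHAT was 4.29 (SE 0.14, adjusted p = 3.34e-61, edgeR) against other amacrine-like and 6.04 (SE 0.18) against ganglion-like nuclei.

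SLC5A7, the choline transporter gene, had the same order of classes at its head in the means over all retinas. Its level in starburst-like nuclei was 561 ± 238 CPM, with a range of 297 to 1077, and in other amacrine-like nuclei 23.7 ± 7.69 CPM. The log2 fold change between these classes was 4.48 (SE 0.15), and no retina overlapped. The second place did not hold in the retinas of the earlier Cell Ranger version. There other amacrine-like nuclei (23.3 CPM) lay below bipolar-like (24.9), Muller-like (29.5) and microglia-like nuclei (35.5 CPM, from 14 UMIs). SLC18A3, the vesicular transporter gene, stood at 131 ± 128 CPM in starburst-like and 7.34 ± 5.11 CPM in other amacrine-like nuclei, with a log2 fold change of 3.90 (SE 0.16). Its starburst-like values ran from 12.9 to 384 CPM, so that its lowest starburst-like value lay below the highest other amacrine-like value of 17.1 CPM. The wide spread of SLC18A3 over retinas is taken up further on.

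**Figure D1:**
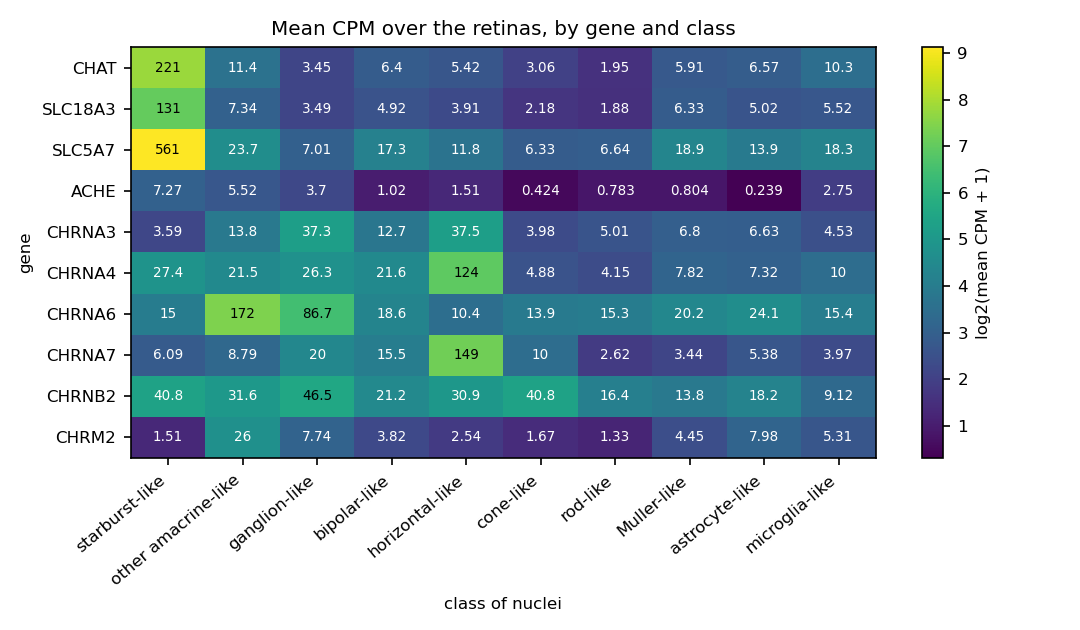
Mean CPM of the 10 genes (rows) in the 10 classes of nuclei (columns), over the retinas; the color gives log2(mean CPM + 1) and the printed number the mean CPM. CHAT, SLC18A3 and SLC5A7 peak in starburst-like nuclei at 221, 131 and 561 CPM, CHRNA6 and CHRM2 in other amacrine-like nuclei, and CHRNA4 and CHRNA7 in horizontal-like nuclei.

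Of 6206 features with at least 20 CPM in starburst-like nuclei, SLC5A7 was the 4th, CHAT the 9th and SLC18A3 the 16th by fold over the mean of the other classes. The features before or between them included GABRA4 and GABRD, GABA receptor subunit genes, and CASQ2, a calcium-binding protein gene. Over the 149 class-by-retina sums, the features whose log2(CPM + 1) was most like that of CHAT were GABRD (Pearson r = 0.82), LINC-SYT6-4 (r = 0.82) and CASQ2 (r = 0.81). For SLC5A7 they were GABRA4 (r = 0.81), GABRD (r = 0.80) and CASQ2 (r = 0.80), and for SLC18A3 GABRD (r = 0.81), SLC5A7 (r = 0.75) and CHAT (r = 0.73). The sums share retinas and depth, and each search covered 13418 features.

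Not all CHAT UMIs lay in the starburst gate. Starburst-like nuclei were 1.67% of nuclei and held 34.2% of CHAT UMIs, other amacrine-like nuclei 20.5% and ungated nuclei 27.4%. For SLC5A7 the shares were 34.5%, 18.0% and 28.4%, close to those of CHAT. SLC5A7 had 2.33 UMIs per CHAT UMI in starburst-like nuclei, 2.02 in other amacrine-like, 2.64 in bipolar-like, 2.09 in cone-like and 2.40 in ungated nuclei. These ratios pool the processing sets. Within starburst-like nuclei the ratio was 3.20 in the earlier and 1.85 in the later set, and within Muller-like nuclei 4.19 and 2.20. In other amacrine-like nuclei it was 2.38 and 1.90, in bipolar-like 3.19 and 2.25 and in ungated nuclei 2.83 and 2.08. Cone-like nuclei held 2.09 in both sets. Whether the UMIs outside the gate came from free RNA or from starburst nuclei that the gate missed was not tested.

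Joint detection in single nuclei followed the levels. Of 1216 starburst-like nuclei with a CHAT UMI, 87.8% also had an SLC5A7 UMI (52.4% to 97.2% by retina, median 90.5%) and 32.1% an SLC18A3 UMI (4.76% to 67.9%). Of the 1692 starburst-like nuclei with an SLC5A7 UMI, 63.1% had a CHAT UMI. Over all 2001 starburst-like nuclei, 1692 had an SLC5A7 UMI and 1216 a CHAT UMI. For this pair, joint detection was therefore close to the shares over all starburst-like nuclei. For thinned shares, nuclei were thinned to 1500 UMIs and those with fewer were left out. A CHAT UMI was then seen in 28.5% of starburst-like, 1.72% of other amacrine-like and 0.380% of cone-like nuclei. Without thinning these shares were 60.5%, 4.12% and 1.25%, with median depths of 3902, 3633 and 3367 UMIs. The corresponding thinned shares of SLC5A7 were 52.2%, 2.88% and 0.752%.

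ACHE was sparse in every class. It stood at 7.27 ± 4.03 CPM in starburst-like nuclei, from 83 UMIs in all, at 5.52 ± 1.18 CPM in other amacrine-like and at 3.70 ± 1.62 CPM in ganglion-like nuclei. Starburst-like nuclei were the higher of the first pair in the later set (9.69 against 5.32 CPM) and the lower in the earlier set (4.50 against 5.75 CPM). The ranges of these classes overlapped (0 to 16.0, 3.89 to 7.34 and 1.56 to 7.15 CPM), and ACHE did not pass the filter on low counts of the class fit, so no test was made. In bipolar-like and cone-like nuclei it stood at 1.02 ± 0.317 and 0.424 ± 0.461 CPM. An antisense feature of the locus, ACHE-AS-1, held 5553 UMIs in the kept nuclei against 1195 for ACHE, and strand assignment of reads there was not tested. The features most like ACHE over the sums were ZNF385D (r = 0.75), LINC-PTPRC-4 (r = 0.73) and GLRA2 (r = 0.71), a glycine receptor subunit gene.

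CHRNA6 led in other amacrine-like and ganglion-like nuclei. This alpha subunit gene, known from dopaminergic neurons and the visual pathway, stood at 172 ± 111 CPM in other amacrine-like nuclei, where its lowest, median and highest values were 48.9, 144 and 340.4 CPM. In ganglion-like nuclei it stood at 86.7 ± 47.0 CPM, and the class ranges overlapped. Within retinas the difference was a log2 fold change of 0.94 (SE 0.12, adjusted p = 3.28e-12). Starburst-like nuclei held only 15.0 ± 13.8 CPM, 3.28 lower on the log2 scale than other amacrine-like nuclei (SE 0.17), and were not separated from cone-like nuclei at 13.9 CPM (log2 0.24, SE 0.20, adjusted p = 0.30). Other amacrine-like nuclei held 57.0% of all CHRNA6 UMIs and ganglion-like nuclei 15.9%.

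CHRNA3, an alpha subunit gene of nicotinic receptors, was highest in horizontal-like and ganglion-like nuclei. The means were 37.5 ± 33.7 and 37.3 ± 18.1 CPM, which the fit did not separate (log2 0.02, SE 0.18, adjusted p = 0.94). Their order turned between the sets (58.1 against 53.7 CPM in the earlier, 19.5 against 23.0 CPM in the later one). Ganglion-like values ran from 15.3 to 74.7 CPM with a median of 33.4 CPM. Other amacrine-like nuclei followed at 13.8 ± 4.61 CPM, lower than ganglion-like nuclei by 1.39 on the log2 scale (SE 0.13), and bipolar-like nuclei at 12.7 CPM were not separated from them (adjusted p = 0.32). Starburst-like nuclei stood at 3.59 ± 3.17 CPM, from 36 UMIs, near the 3.98 CPM of cone-like nuclei. Among the features most like CHRNA3 were TRPM3-AS-3 (r = 0.65), ADGRB1 (r = 0.65) and NDST3-AS-3 (r = 0.65).

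CHRNA4 and CHRNA7 were highest in horizontal-like nuclei. CHRNA7, which forms receptors from a single kind of subunit, stood there at 149 ± 61.6 CPM, with values from 44.5 to 229 CPM and a median of 151 CPM. The next class was ganglion-like nuclei at 20.0 ± 9.42 CPM, and every horizontal-like value was above their highest of 38.3 CPM. The log2 fold change of ganglion-like against horizontal-like nuclei was -2.98 (SE 0.13, adjusted p = 1.49e-48). Below these came bipolar-like nuclei at 15.5 CPM, cone-like at 10.0 CPM and other amacrine-like at 8.79 CPM, each lower than the class before it (adjusted p of 0.0022, 1.88e-05 and 0.0085). Starburst-like nuclei stood at 6.09 CPM. ONECUT1, a fixed marker of the horizontal gate, was among the features most like CHRNA7 (r = 0.73), beside HS6ST2 (r = 0.75) and LINC-NDST3-1 (r = 0.73).

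CHRNA4, the usual partner of CHRNB2 in the brain, stood at 124 ± 95.8 CPM in horizontal-like nuclei (lowest 19.9, median 101, highest 299 CPM). Starburst-like nuclei followed at 27.4 ± 21.7 CPM, 2.02 lower on the log2 scale (SE 0.18). Starburst-like, ganglion-like (26.3), bipolar-like (21.6) and other amacrine-like (21.5 CPM) nuclei were not separated from their neighbours in this order, with log2 fold changes of 0.04 (SE 0.17), 0.25 (SE 0.13) and 0.04 (SE 0.12). In the later set alone starburst-like nuclei (11.8 CPM) lay below ganglion-like ones (13.5 CPM). Other amacrine-like nuclei were lower than ganglion-like ones by 0.29 (adjusted p = 0.047). Leaving out any of Infancy 1, 2, 3 or 5, Mature 2 or 4 or Senile 3 ended this call (adjusted p of 0.054 to 0.089), as did fitting without the filter on low counts (-0.25, adjusted p = 0.12). Its closest features were ST8SIA3 (r = 0.76), ARHGAP44-AS-2 (r = 0.75) and SLC16A3 (r = 0.75).

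CHRNB2, the beta subunit gene shared by many nicotinic receptors, was high in several classes. Ganglion-like, starburst-like and cone-like nuclei stood at 46.5 ± 27.5, 40.8 ± 22.9 and 40.8 ± 9.43 CPM, and neither step in this order passed the test (adjusted p of 0.34 and 0.45). The order of the means depended on the processing set, with 71.1, 60.7 and 44.6 CPM in the earlier set and 25.0, 23.5 and 37.5 CPM in the later one, where cone-like nuclei were highest. Other amacrine-like nuclei held 31.6 ± 14.1 CPM. Starburst-like nuclei were higher than these by 0.42 on the log2 scale (SE 0.14, adjusted p = 0.0088), a call that ended under a stricter gate (0.25, adjusted p = 0.31) and without the filter on low counts (0.17, adjusted p = 0.48). The features most like CHRNB2 were FGFR1OP (r = 0.66), DUS3L (r = 0.63) and KIF1A (r = 0.60), the last a neuronal kinesin gene.

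CHRM2 was highest in other amacrine-like nuclei. Its level there was 26.0 ± 10.8 CPM, with values from 9.32 to 43.2 CPM and a median of 25.1 CPM, and 59.4% of its UMIs lay in this class. Astrocyte-like nuclei, with 23 UMIs in all, stood at 7.98 ± 7.23 CPM and ganglion-like nuclei at 7.74 ± 4.46 CPM, in an order that turned between the sets (12.9 against 11.2 CPM in the earlier, 3.67 against 4.73 CPM in the later one). In starburst-like nuclei CHRM2 stood at 1.51 ± 2.08 CPM, from 19 UMIs, which was 3.58 lower on the log2 scale than in other amacrine-like nuclei (SE 0.27, adjusted p = 2.01e-25). Its thinned detection in starburst-like nuclei was 0.168%, beside 0.191% in cone-like nuclei. Whether these UMIs came from free RNA was not tested. Of the starburst-like nuclei with a CHAT UMI, 0.822% had a CHRM2 UMI. PLCB1 (r = 0.68), a phospholipase C gene, was the feature most like it, followed by LINC-UBE2E1-6 (r = 0.63) and SLITRK4 (r = 0.63).

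Between starburst-like and other amacrine-like nuclei, 4 of the 9 members tested were higher and 3 lower. Over all 13973 features tested, 18.1% were higher and 26.6% lower in starburst-like nuclei, and the median log2 fold changes were 0.34 over the members and -0.08 over all features. Against ganglion-like nuclei, 3 members were higher and 4 lower (CHRNA3 by 3.25, CHRNA6 by 2.35, CHRNA7 by 1.67 and CHRM2 by 1.81 on the log2 scale), beside 23.3% and 30.6% of all features. Between other amacrine-like and ganglion-like nuclei, 5 members were higher and 4 lower, beside 26.8% and 26.1% of all features.

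The other cholinergic genes came from a list of 35, of which 19 were tested in this fit. Against other amacrine-like nuclei, 5 were higher and 10 lower in starburst-like nuclei, beside 18.1% and 26.6% of all features. Among the receptor genes, CHRNB3, often paired with CHRNA6, fell by 3.21 on the log2 scale (13.4 against 132 CPM), CHRNB4 by 3.03 and CHRM3 by 1.36, whereas CHRNA5 was not separated (-0.56, adjusted p = 0.34). LYPD6 and LYPD6B, modulators of nicotinic receptors, were lower by 2.93 and 2.57, BCHE, a second cholinesterase gene, by 2.30 and RGS7, a regulator of G protein signalling, by 1.87. PRIMA1, which anchors acetylcholinesterase to the membrane, was higher by 2.34 (90.1 against 18.7 CPM). PRIMA1 was higher still in astrocyte-like nuclei, at 134 CPM in the earlier and 166 CPM in the later set. Starburst-like nuclei held 95.5 and 85.3 CPM in these sets. KCNJ3, a G protein-gated potassium channel gene, was higher by 2.27 (3204 against 693 CPM).

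Against ganglion-like nuclei the list gave 5 higher and 10 lower genes, beside 23.3% and 30.6% of all features. KCNJ3 (3.32) and PRIMA1 (2.96) led the higher genes. LYPD6B (-4.23), CHRNB4 (-4.11), CHRNB3 (-3.98) and LYPD6 (-3.75) led the lower ones, followed by CHRM3 (-2.12) and CHRNA5 (-2.02). In starburst-like nuclei CHRNB4, CHRM3 and CHRNA5 were near the floor. They held 1.31, 0.461 and 0.390 CPM in the earlier and 0.931, 2.40 and 1.16 CPM in the later set. Their changes against both classes rest on these low counts. CHRNB3 was highest in ganglion-like nuclei at 225 CPM, and CHRM3 and CHRNA5 were highest in bipolar-like nuclei at 93.2 and 17.0 CPM. CHRM1 was at most 1.94 CPM in any named class. CHRM4, CHRM5, CHRNA9 and CHRNA10 are listed at 0 in all nuclei.

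By stage, CHAT in starburst-like nuclei did not pass the test. The 5 infancy retinas held 262, 239, 227, 165 and 195 CPM, the mature retinas 247, 255, 220.5, 156 and 291 CPM and the senile retinas 202, 206, 203, 214 and 238 CPM, in label order. The groups overlapped throughout. The log2 fold change was 0.09 (SE 0.16) from infancy to the mature stage and -0.04 (SE 0.17) from infancy to the senile stage, with the processing set as a term in the fit. In the whole retina CHAT was 16.1 ± 1.86, 15.3 ± 3.97 and 13.6 ± 2.53 CPM in the 3 stages (n = 5 each). Its log2 fold change from infancy to the senile stage, -0.34 (SE 0.21, adjusted p = 0.60, edgeR), did not pass the test. A whole-retina value depends on both the number of starburst nuclei and the RNA per nucleus. The thinned share of amacrine-like nuclei with a CHAT UMI was 4.13% ± 0.231, 3.96% ± 1.08 and 3.54% ± 0.857. It leaves out the shallow nuclei, from 0 of 1583 in Mature 5 to 530 of 1389 in Senile 2. No pair of stages passed the test (exact permutation test over 5 against 5 retinas, 2-sided, lowest adjusted p = 0.57), nor did the share of amacrine-like nuclei in the starburst gate (8.16% ± 1.40, 6.61% ± 2.60 and 7.25% ± 1.04, lowest adjusted p = 0.44). The smallest p that test can give is 0.0079. It takes no account of the processing set. The starburst share ran from 5.69% to 9.86% in the earlier set and from 3.33% to 7.67% in the later one.

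**Figure D2:**
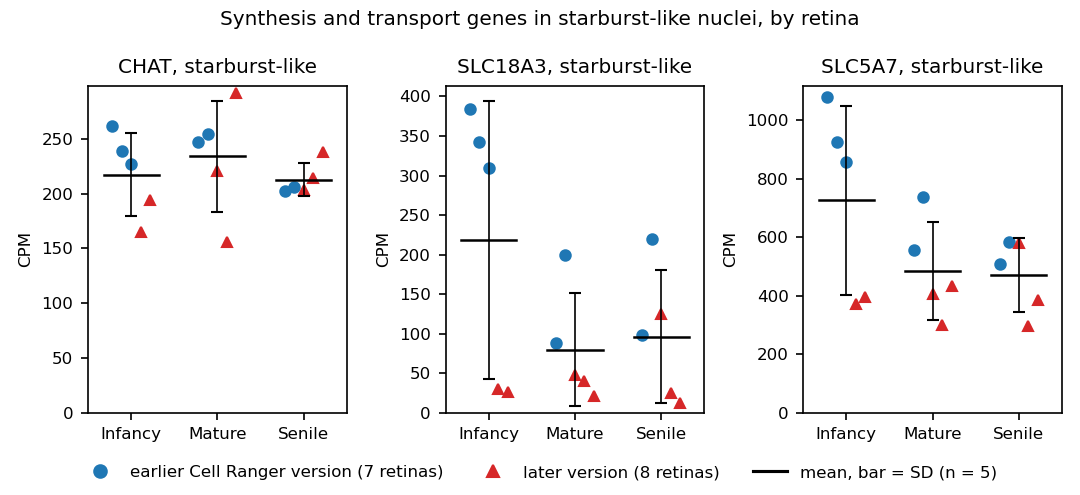
CPM of CHAT, SLC18A3 and SLC5A7 (y axis) in starburst-like nuclei by stage (x axis); 1 point per retina, circles for the earlier and triangles for the later Cell Ranger version, lines for the mean and bars for the SD of 5 retinas. CHAT overlaps across stages, whereas SLC18A3 is at 309 to 384 CPM in the infancy retinas of the earlier version and at 25.6 and 29.8 CPM in those of the later one.

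SLC18A3 in starburst-like nuclei separated by processing set within the infancy and mature stages. The infancy retinas held 384, 342 and 309 CPM in the earlier set and 29.8 and 25.6 CPM in the later set. The mature retinas held 88.8 and 199 CPM in the earlier set and 47.6, 40.8 and 21.3 CPM in the later one, and the senile retinas 98.3 and 220.0 against 124, 25.5 and 12.9 CPM. The earlier values were the higher ones in infancy and at the mature stage without overlap, and Senile 3, a retina of the later set, lay among the earlier ones. Over all stages the mean was 235 CPM in the earlier and 41.0 CPM in the later set, a ratio of 5.72, which was above that of 99.8% of 11593 features in these nuclei, whose median ratio was 0.954. The same ratio was 1.11 for CHAT and 1.89 for SLC5A7. With the set as a term, SLC18A3 changed by -0.71 (SE 0.44) from infancy to the mature stage and by -0.68 (SE 0.49) to the senile stage, neither past the test (adjusted p of 0.65 and 0.84). Within the later set alone the values were 0.37 and 0.61, the opposite sign, and within the earlier set -1.31 and -1.39 (adjusted p of 0.070 and 0.11).

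Counted per CHAT UMI in the same nuclei, SLC18A3 gave 0.359 to 1.47 UMIs in the 7 retinas of the earlier set and 0.0540 to 0.612 in the 8 of the later set. Median UMIs per starburst-like nucleus were 1618 to 3454 and 3017 to 10822. Senile 4 of the later set (3017 UMIs) had 0.119, below all 7 earlier ratios, from 8 SLC18A3 and 67 CHAT UMIs. The ratios of the sets overlapped only through Senile 3 of the later set (0.612, at 3905 UMIs), which lay above Mature 1 (0.359) and Senile 1 (0.487). SLC5A7 gave 2.24 to 4.12 UMIs per CHAT UMI in the earlier and 1.39 to 2.86 in the later set. The part of depth, preparation and program version in these ratios was not tested.

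**Figure D3:**
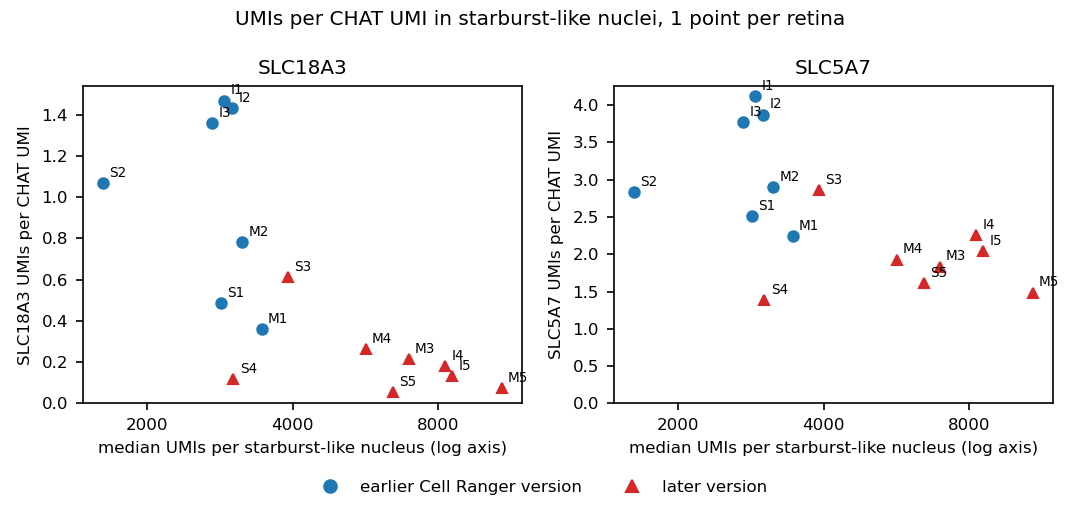
UMIs of SLC18A3 (left) and SLC5A7 (right) per CHAT UMI in starburst-like nuclei (y axis) against the median UMIs per starburst-like nucleus (x axis, log scale); each point is a retina, named by the initial of its stage and its number, circles for the earlier and triangles for the later version. SLC18A3 ratios run from 0.359 to 1.47 in the earlier and from 0.0540 to 0.612 in the later set. They overlap through Senile 3 (S3, 0.612), which lies above Mature 1 (M1, 0.359) and Senile 1 (S1, 0.487).

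SLC5A7 passed the test by stage in part of the fits only. In the whole retina its values were 56.4, 56.7, 56.0, 30.2 and 39.5 CPM in infancy, 37.2, 44.8, 27.3, 19.8 and 34.2 CPM at the mature stage and 26.5, 25.9, 33.9, 20.2 and 28.9 CPM at the senile stage. All 5 senile values were below the 3 infancy values of the earlier set, but 1 of them, Senile 3, was above an infancy value of the later set. The log2 fold change from infancy to the senile stage was -0.76 (SE 0.20, adjusted p = 0.095, edgeR), which did not pass the test, and DESeq2 gave an adjusted p of 0.018 at the same fold change. Without Senile 3 it was -0.89 (adjusted p = 0.025) and without Mature 4 -0.78 (adjusted p = 0.048). Within the earlier set it was -1.23 (adjusted p = 0.0035) and within the later set -0.33 (adjusted p = 0.83). The difference between the sets was not tested.

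In starburst-like nuclei SLC5A7 stood at 1077, 925, 857, 371 and 397 CPM in infancy, at 555, 737, 405, 300.2 and 432 CPM at the mature stage and at 508, 582, 581, 297 and 384 CPM at the senile stage. The stages overlapped through the later set, whose values stayed between 297 and 581 CPM. The log2 fold changes were -0.41 (SE 0.19) and -0.45 (SE 0.20) from infancy to the mature and senile stages, with adjusted p of 0.45 and 0.59. Within the earlier set the second was -0.94 (adjusted p = 0.034) and within the later set 0.06. In other amacrine-like nuclei SLC5A7 gave -0.95 (SE 0.25, adjusted p = 0.11) from infancy to the senile stage, and -1.14 (adjusted p = 0.022) without Senile 3.

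With the Cell Ranger version as a term and the filter on low counts, edgeR called no member in any stage comparison of all 15 retinas. This held over the whole retina and the 6 classes fitted. Other settings called a few members (SLC5A7, SLC18A3, CHRNA3, CHRNA6 and CHRM2). Apart from DESeq2, the share of all features called in those settings is not given here. Those calls therefore cannot be set against the general rate. Here p-values measure only the spread between these retinas. In the whole retina all 10 members were tested, and from infancy to the senile stage 0 were called, SLC5A7 alone (1) reached p under 0.05 before adjustment and DESeq2 called 1. Of all 28977 features, edgeR called 1.64% and DESeq2 2.91%, and 11.2% reached p under 0.05 before adjustment. From infancy to the mature stage 0 were called, SLC5A7 and CHRM2 (2) reached p under 0.05 before adjustment and DESeq2 called 0, beside 0.994% of all features called and 12.3% before adjustment. In starburst-like nuclei 6 members were tested and 0 called in each of these comparisons, with 2 at an unadjusted p under 0.05 in each (SLC5A7 and CHRNB2) and 0 called by DESeq2, beside 0.534% of all features called for the mature and 0.492% for the senile stage. Before adjustment, 10.1% and 7.80% of all features reached p under 0.05. CHAT was among the 6 at -0.04 to 0.09, and ACHE, CHRNA3, CHRNA7 and CHRM2 did not pass the filter there.

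In bipolar-like, cone-like and Muller-like nuclei, 0 members were called by edgeR and 0 by DESeq2 in any stage comparison. Only SLC18A3 in cone-like nuclei had an unadjusted p under 0.05, from infancy to the mature stage (-1.17, SE 0.50, adjusted p = 0.44), as did 9.80% of all features there. The shares of all features called from infancy to the mature stage were 0.963%, 1.21% and 0.931% in these classes, and to the senile stage 1.72%, 1.58% and 1.05%. Between the mature and senile stages 0 members were called in any set, with 1 at an unadjusted p under 0.05 in other amacrine-like nuclei, where 10.3% of all features reached it, and 0 called by DESeq2. The shares of all features were 0.0162% in bipolar-like, 0.00626% in cone-like and 0.0174% in Muller-like nuclei, and 0% in the remaining sets.

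CHRNB2 in starburst-like nuclei was 51.9, 75.9, 69.6, 35.0 and 33.2 CPM in infancy, 47.8, 58.8, 22.6, 18.5 and 17.8 CPM at the mature stage and 35.5, 85.2, 24.9, 12.8 and 23.2 CPM at the senile stage. The highest value was a senile one, and the stages overlapped. Its log2 fold changes from infancy were -0.60 (SE 0.22) and -0.59 (SE 0.25), with adjusted p of 0.31 and 0.57. The 7 retinas of the earlier set (35.5 to 85.2 CPM) did not overlap with the 8 of the later set (12.8 to 35.0 CPM), as was the case for 1.40% of all features in these nuclei.

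In other amacrine-like nuclei the stage comparisons of the 10 members gave 0 calls from infancy to the mature stage, with 4 (SLC5A7, ACHE, CHRNA6 and CHRM2) at an unadjusted p under 0.05 and 0 by DESeq2, beside 0.763% of all features called and 13.1% before adjustment. From infancy to the senile stage they gave 0 calls, with 2 (SLC5A7 and CHRNA3) at an unadjusted p under 0.05 and 1 by DESeq2 (SLC5A7), beside 1.19% of all features called by edgeR, 1.84% by DESeq2 and 8.48% before adjustment. CHRM2 was 38.9, 43.2, 35.1, 18.8 and 18.4 CPM in infancy, 25.1, 31.4, 17.7, 9.32 and 14.4 CPM at the mature stage and 34.5, 41.7, 26.1, 15.0 and 19.8 CPM at the senile stage. The stages overlapped, and the log2 fold change from infancy to the mature stage was -0.51 (SE 0.18, adjusted p = 0.24). ACHE was 5.46, 7.34, 6.91, 5.73 and 5.87 CPM in infancy and 4.51, 4.76, 4.16, 4.39 and 4.59 CPM at the mature stage. These did not overlap, as was the case for 2.41% of all features, while the senile values of 3.89 to 6.96 CPM overlapped with both. The log2 fold change of ACHE to the mature stage was -0.52 (SE 0.20, adjusted p = 0.28).

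CHRNA6 in other amacrine-like nuclei separated by processing set, and its stages overlapped. The earlier set ran from 156 to 340.4 CPM and the later one from 48.9 to 144 CPM, a ratio of 3.42 without overlap, as was the case for 5.90% of all features in these nuclei. By stage the means were 231 ± 121, 140.4 ± 109 and 144 ± 102 CPM, and the log2 fold change to the mature stage was -0.60 (SE 0.27, adjusted p = 0.35). CHRNA3 in these nuclei changed by -0.83 (SE 0.27, adjusted p = 0.26) from infancy to the senile stage, and by -1.07 (adjusted p = 0.042) without Senile 3.

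**Figure D4:**
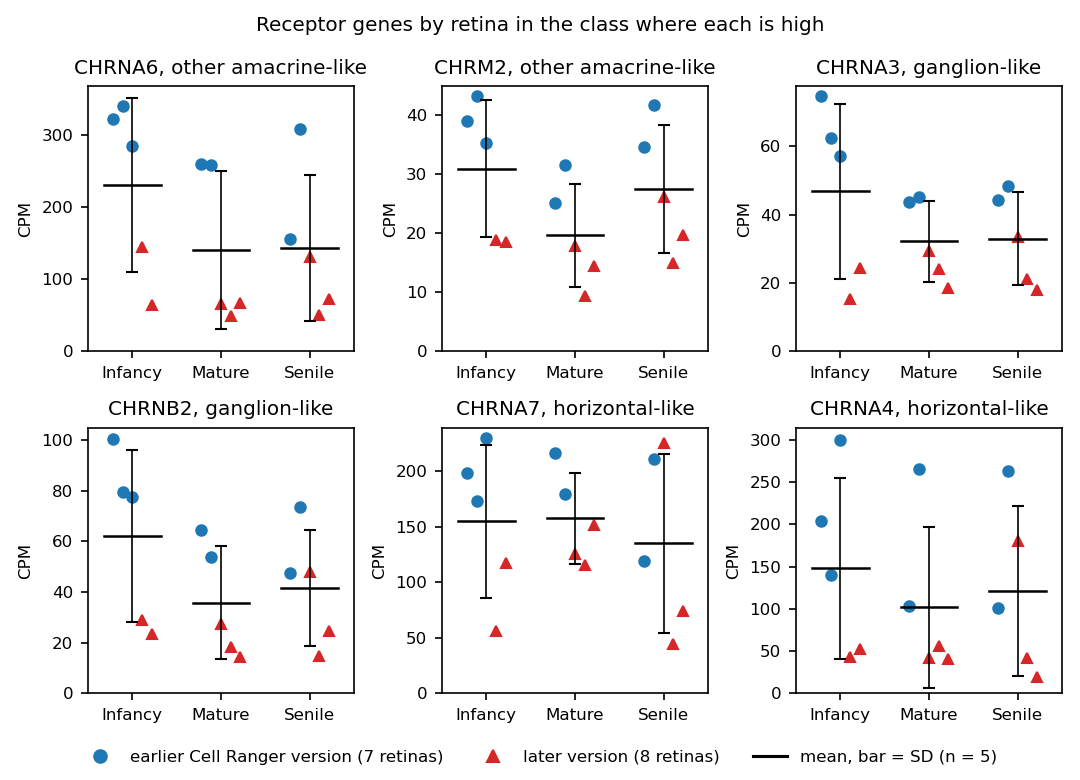
CPM (y axis) of 6 receptor genes by stage (x axis), each in a class where it is high; 1 point per retina, circles for the earlier and triangles for the later Cell Ranger version, lines for the mean and bars for the SD of 5 retinas. CHRNA6 in other amacrine-like and CHRNA3 in ganglion-like nuclei show no overlap between the versions, and every panel overlaps between the stages.

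In ganglion-like nuclei all 10 members were tested. From infancy to the mature stage 0 were called, CHRM2 alone reached p under 0.05 before adjustment (-0.81, SE 0.36) with 0 by DESeq2, beside 0.662% of all features called and 6.70% before adjustment. From infancy to the senile stage 0 were called, 0 reached p under 0.05 before adjustment and 0 were called by DESeq2, beside 1.01% of all features called and 5.67% before adjustment. CHRNA6 was 148, 169.7, 144, 85.8 and 45.2 CPM in infancy and 81.2, 83.8, 95.3, 32.9 and 33.7 CPM at the senile stage. Senile 3 was the highest of the senile retinas although it belongs to the later set. The log2 fold change was -0.59 (SE 0.31, adjusted p = 0.97) with it and -1.05 (adjusted p = 0.0016) without it, and within the earlier set it was -1.08 (adjusted p = 0.0011).

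CHRNA3 and CHRNA7 in ganglion-like nuclei did not overlap between the sets, at 43.7 to 74.7 against 15.3 to 33.4 CPM and 24.3 to 38.3 against 6.72 to 21.8 CPM, as was the case for 2.95% of all features in these nuclei. Their changes from infancy to the senile stage were -0.26 (SE 0.24) and 0.16 (SE 0.29). CHRNB2 in the same nuclei was 47.4 to 100.5 CPM in the earlier and 14.3 to 47.8 CPM in the later set, where Senile 3 alone reached the earlier range. In horizontal-like nuclei, which were not fitted by stage, CHRNA7 was 155 ± 68.7, 157 ± 41.1 and 135 ± 80.7 CPM and CHRNA4 148 ± 107, 102 ± 95.1 and 121 ± 101 CPM in the 3 stages. Their stages overlapped, and CHRNA7 rested on 12 to 141 UMIs per retina.

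**Figure D5:**
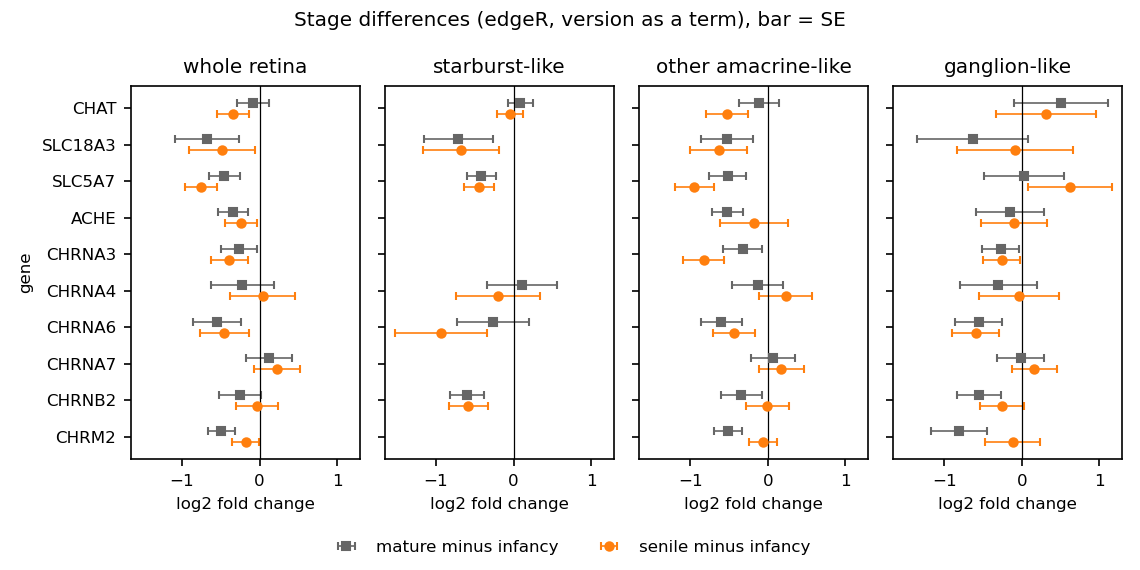
Log2 fold changes from infancy to the mature (squares) and senile (circles) stages (x axis) of the members (y axis) in the whole retina and in 3 classes, with SE bars, from edgeR fits with the Cell Ranger version as a term; members that did not pass the filter on low counts have no symbol. SLC5A7 in the whole retina is at -0.76 and in other amacrine-like nuclei at -0.95 for the senile stage, and CHAT in starburst-like nuclei lies near 0.

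Of the cholinergic list, 1 of 19 genes tested in ganglion-like nuclei passed the test from infancy to the senile stage, beside 1.01% of all features. In cone-like nuclei 1 of 18 tested passed it, beside 1.58% of all features. In the same comparison edgeR called 0 of 24 list genes in the whole retina, 0 of 12 in starburst-like and 0 of 19 in other amacrine-like nuclei. It also called 0 of 20 in bipolar-like and 0 of 15 in Muller-like nuclei. The shares of all features called in these sets were 0.492% to 1.72%. In the other stage comparisons edgeR called 0 list genes in any set. CHRM3, a muscarinic receptor gene, fell by 1.40 on the log2 scale (SE 0.24, adjusted p = 0.0040) from infancy to the senile stage in ganglion-like nuclei. The call ended with the stage alone in the fit (adjusted p = 0.46) and within the later set (adjusted p = 0.89). It also ended with the replicate number as a block (values below). CHRM3 was low in ganglion-like nuclei, at 5.57 CPM in the earlier and 9.73 CPM in the later set. It was most abundant in bipolar-like nuclei (95.5 and 91.2 CPM), where it was not called. CHPT1, a choline phosphotransferase gene, fell by 0.86 (SE 0.13, adjusted p = 0.0011) in cone-like nuclei over the same stages.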

How the data were processed

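UMI counts per feature and nucleus were deposited by the authors as Cell Ranger output on a tree shrew (TS_3.0) genome. The file headers name version 6.1.2 for 7 retinas and 7.0.1 for 8, whereas the submitters' processing notes name 5.0.1 and 7.0.1. Whether intronic reads were counted is not given in the sources used here, nor is the strand setting. Barcodes with over 200 and under 6000 genes and under 5% mitochondrial UMIs were kept, 119765 of 120437, from libraries of 13429873 to 58734300 UMIs. Libraries shared at most 0.42% of the smaller library's barcodes. No doublet caller was run.

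Nuclei were classed by a Poisson score over 74 of 81 fixed markers. The scoring rule and its thresholds were set after marker levels were seen. The 10 genes, the cholinergic list and the tests were chosen with earlier results of these data known. Counts were summed per class and retina. Classes were compared with edgeR 4.0.16 (quasi-likelihood, TMM, low-count filter, Benjamini-Hochberg over all features) with the retina as a block. Stages were compared with the same test and the Cell Ranger version as a term, with DESeq2 1.42.0 as an alternative. Rod-like nuclei of Senile 1 (1 nucleus) were left out. Stage shares were compared by exact permutation over retinas. The scripts were checked on simulated data with the same dispersion for every feature. There the stage fits (senile minus infancy) recovered 15% to 28% of 2-fold and 78% to 87% of 4-fold changes. The class fit (starburst minus other amacrine) recovered 63% and 84%. A member not called by stage is thus not shown to be unchanged. Named were the 10 members, at most 8 list genes past the test per contrast by size, CHRNB3, CHRNA5, CHRNB4 and the muscarinic receptor genes in any case, and the 3 most alike features per member among those with a mean of at least 5 CPM. A few leading features were named after their values were seen. Fits within a single version set were chosen after seeing the data. Sex was not modelled.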

Additional observations from a re-analysis of the deposited data

Results flagged for a closer look

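CHRNA4 in horizontal-like nuclei of Mature 2 stood at 266 CPM, far from the other 4 mature retinas at 41.1 to 104 CPM. Its gap to the nearest retina was 0.722 of the range, above the critical value of 0.71 for 5 samples. This was 1 of 60 groups tested, and chance gives about 1 in 20. Mature 2 belongs to the earlier set, as does the retina nearest to it.

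CHAT, SLC18A3 and SLC5A7 were also present in ungated nuclei. These nuclei enter no comparison of classes, but they are part of the whole-retina sums and so of the whole-retina stage comparisons. The means of these genes in ungated nuclei were 36.5, 21.6 and 88.5 CPM, against 3.06, 2.18 and 6.33 CPM in cone-like nuclei. ACHE-AS-1, the antisense feature of the ACHE locus, stood at 35.9 CPM in starburst-like, 22.6 CPM in ganglion-like and 22.5 CPM in other amacrine-like nuclei. It stood at 14.3 CPM in horizontal-like and 2.82 CPM in cone-like nuclei, and no test of it is given here.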

How the results depend on the processing

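The counts of members past the test by stage were 0 with the version as a term, and settings moved them as follows. From infancy to the senile stage the whole retina gave 1 (SLC5A7) with DESeq2 (-0.76, adjusted p = 0.018), with no filter on low counts (-0.77, 0.049), and within the earlier set (-1.23, 0.0035), and 0 to 1 when a retina was left out, with the call without Mature 4 (-0.78, 0.048) or Senile 3 (-0.89, 0.025). Other amacrine-like nuclei gave 1 with DESeq2 (SLC5A7, -0.95, 0.011), 2 within the earlier set (SLC5A7 and SLC18A3), and 0 to 2 with a retina left out, the 2 being SLC5A7 (-1.14, 0.022) and CHRNA3 (-1.07, 0.042) without Senile 3. Ganglion-like nuclei gave 1 (CHRNA6) within the earlier set and 0 to 1 with a retina left out, the call without Senile 3 (-1.05, 0.0016). Starburst-like nuclei gave 1 within the earlier set (SLC5A7, -0.94, 0.034). Apart from DESeq2, the share of all features called in each of these settings is not given here. These counts therefore cannot be read as more or fewer than the general rate. The cause was not tested.

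Replicate numbers did not pair the retinas: 13 of 15 same-number pairs correlated over 0.1 around the stage mean, but 2 of 15 around the mean of stage and version. The replicate block gave 1 call in the whole retina for the senile stage (SLC5A7, -0.88, 0.031) and 1 in other amacrine-like nuclei for the mature stage (CHRM2, -0.77, 0.040), and ended that of CHRM3 (-1.22, 0.14). The share of all features called with this block is not given here, so these counts cannot be set against it.

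Within the later set the signs of SLC18A3 (0.37 and 0.61), CHAT (0.25) and SLC5A7 (0.0641) in starburst-like nuclei reversed. With a retina left out, CHAT ran from -0.0021 (without Mature 5) to 0.21 for the mature and from -0.137 to 0.0592 (without Senile 1) for the senile stage, CHRNA4 between starburst-like and ganglion-like nuclei from -0.0472 (without Mature 3) to 0.0814, and CHRNA3 between ganglion-like and horizontal-like nuclei from -0.0412 (without Senile 2) to 0.17. CHRNA4 also reversed with no filter (-0.17) and a stricter gate (-0.13). The CHAT share, mature minus infancy, was 0.32 percentage points without thinning and -0.354 to 0.293 with a retina left out (positive without Mature 4), against -0.177. The starburst share, senile minus mature, was -0.48 with the stricter gate and -0.187 to 1.45 with a retina left out (negative without Mature 4), against 0.635. CHRNA7 passed between starburst-like and other amacrine-like nuclei with no filter (-0.71, 0.0096) and without Infancy 1 or 5, Mature 2 or Senile 1, and CHRNB2 between starburst-like and ganglion-like nuclei with no filter (-0.36, 0.030). Of single-gene values, 24 of 720 with a retina left out and 23 of 262 under the other settings changed direction or call.

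The alternatives of the class fit covered 6 contrasts, and its refits with a retina left out kept the dispersion trend of the full fit. Sparse members (ACHE, CHRNA7, CHRNA3 and CHRM2 in starburst-like nuclei, with 83, 54, 36 and 19 UMIs) could not be compared by stage at this depth, and intervals between retinas rest on 5 per stage.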
